A study of Mus musculus with 6 samples.

Results

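The MHC class II presentation genes described here were 7 of the 33696 genes counted in the study: H2-Aa (ENSMUSG00000036594), H2-Ab1 (ENSMUSG00000073421), H2-Eb1 (ENSMUSG00000060586), H2-DMa (ENSMUSG00000037649), H2-DMb1 (ENSMUSG00000079547), Cd74 (ENSMUSG00000024610) and Ciita (ENSMUSG00000022504). They were taken by symbol, and all 7 were counted in every library. The study profiled single CD45+ DAPI- cells (living white blood cells) sorted from mouse mammary tumours, and its title names MERTK inhibition and cyclophosphamide, an alkylating drug, as the treatments. MERTK is a receptor tyrosine kinase of phagocytes that takes part in the uptake of dying cells. The 5 libraries used were labelled MRX, CTX, Combined, ctxd18t and combod18t, each a single library. What the names stand for is not written out in the labels. By the title and the protocol, MRX stands beside the MERTK inhibitor, CTX beside cyclophosphamide and Combined beside both. The names ctxd18t and combod18t carry d18, read here as day 18. The protocol, which is the same text for every library, speaks of day 7 mice treated 3 hours before harvest, and of spleens as well, while each library is labelled as mammary tumour. Strain, age, tumour line and the number of mice in a library are not given in the sources used here. The library labelled VC (3656 barcodes) was not analysed here, so no comparison below has an untreated group.

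Each library was 1 sample, so no difference between libraries could be tested. Intervals below are exact 95% intervals of counting error only, and say nothing of the spread between mice. The 5 libraries held 4085 to 9064 cell barcodes and 39820290 to 100733879 unique molecular identifiers (UMIs, each standing for 1 captured RNA molecule). Of the barcodes, 3826 to 8520 in a library were kept, with a median of 6239 to 8907 UMIs per cell. Some barcodes occurred in a pair of libraries: 34 in CTX and combod18t, and 21 in Combined and ctxd18t. Leaving those cells out moved no log2 ratio of the 7 genes by more than 0.057. The barcodes of this chemistry carry a code for the sample, and CTX shared its code with combod18t and Combined with ctxd18t, which crosses the pairs that the names give. Whether the day 18 labels were exchanged was not tested, and an exchange would turn the sign of every ratio of combod18t to ctxd18t below. A code used again was read here as a separate capture, which no label states, so the day 18 libraries may differ from the others in capture as well as in day. The values of CTX and ctxd18t, or of Combined and combod18t, are therefore given side by side only.

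MHC class II molecules hold peptides from swallowed material at the surface of antigen-presenting cells, where CD4+ T cells read them. An alpha and a beta chain pair in the endoplasmic reticulum around the invariant chain, which fills the groove and steers the complex to lysosomal compartments. Proteases trim the invariant chain to a short remnant, and the editor H2-DM exchanges that remnant for a peptide. Dendritic cells and B cells make class II at rest, whereas macrophages raise it in response to interferon gamma. H2-Aa and H2-Ab1 encode the alpha and beta chains of I-A, H2-Eb1 the beta chain of I-E, H2-DMa and H2-DMb1 the alpha chain and a beta chain of H2-DM, and Cd74 the invariant chain. Ciita encodes the coactivator that switches the other genes on. CIITA does not bind DNA itself but docks on a complex of RFX, CREB and NF-Y proteins at paired sequence elements, the X box and the Y box, upstream of class II genes.

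Promoter stretches are shown for the genes where letters of both boxes were found: H2-Aa, H2-Eb1 and H2-DMb1 of the 7, and H2-Oa, H2-Ob and H2-Eb2 outside them. RefSeq promoters (GRCm38.p6; 250 bases before to 50 bases after each gene start) were searched on both strands for GNAAC, a core of the X box, followed after 20 to 30 bases by TGATTGG, a core of the Y box. These letters were chosen after the class II promoters had been looked at. The cores are in capitals and each line runs 5′ to 3′ on the gene's strand.
H2-Aa: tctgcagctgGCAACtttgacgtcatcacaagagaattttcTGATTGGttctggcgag
H2-Eb1: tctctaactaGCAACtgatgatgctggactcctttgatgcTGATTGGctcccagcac
H2-DMb1: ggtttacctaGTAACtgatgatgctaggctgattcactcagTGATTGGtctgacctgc
H2-Oa: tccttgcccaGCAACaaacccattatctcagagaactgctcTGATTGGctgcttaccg
H2-Ob: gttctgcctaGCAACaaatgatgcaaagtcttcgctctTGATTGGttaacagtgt
H2-Eb2: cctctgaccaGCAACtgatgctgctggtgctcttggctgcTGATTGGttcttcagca
The stretches lie at chr17:34287857-34287914 (minus strand) for H2-Aa, chr17:34305766-34305822 (plus) for H2-Eb1, chr17:34153087-34153144 (plus) for H2-DMb1, chr17:34092293-34092350 (plus) for H2-Oa, chr17:34238808-34238862 (plus) for H2-Ob and chr17:34325533-34325589 (plus) for H2-Eb2, all upstream of the gene start. Their cores were 23 to 26 bases apart. Of 32851 promoters, 106 (0.323%) held the pair, and 2568 (7.82%) held the Y core with or without the other. Of the 7 genes, 4 had a promoter in the table, and the pair was found in 3 of them. Neither of the H2-DMa promoters in the table held these letters. Of the 27 other genes of the route listed further on, 24 had a promoter and 3 held the pair (H2-Oa, H2-Ob and H2-Eb2), while H2-DMb2, Rfx5, Nfyc and Ifngr1 held the Y core without the pair. A match is a description of letters, not a shown binding site. H2-Ab1, Cd74 and Ciita were not matched in the table.

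Cells were grouped by clustering and named from marker genes, with the 7 genes and the other genes of the route listed further on kept out of the clustering. Monocyte-macrophage-like cells numbered 1367 (MRX), 4271 (CTX), 1169 (Combined), 739 (ctxd18t) and 223 (combod18t), and all 10 of their lineage markers were seen in at least 10% of cells in every library. Within them, C1q macrophage-like cells (C1qa, Apoe and others) numbered 797, 1350, 201, 320 and 121 in that order of libraries. Ly6i Lpl macrophage-like cells, with inflammatory genes such as Nos2 and Il1rn in their marker list, numbered 121, 2198, 830, 40 and 20. A further cluster of the lineage held 122, 514, 82, 172 and 11 cells. It scored best on the Vcan F13a1 monocyte markers, but as none of them was among its 10 leading genes it was given no state name. Vcan F13a1 monocyte-like cells numbered 285, 59, 23, 173 and 68, and non-classical monocyte-like cells 42, 150, 33, 34 and 3. C1q macrophage-like cells therefore made up most of the lineage in MRX and combod18t, and Ly6i Lpl macrophage-like cells in CTX and Combined. Conventional dendritic-like cells numbered 176, 245, 74, 116 and 44 and were split into cDC1-like (10 to 33 cells in a library), cDC2-like (20 to 199) and CCR7 dendritic-like (10 to 36) cells. A further 6, 186, 20, 11 and 0 cells of the dendritic clusters scored higher on monocyte-macrophage markers. They were put in no named class, and what leaving them out did to the values below was not tested. The cDC2-like class was made of 3 subclusters, of 207 cells led by Cd209a and Clec4b1, 215 cells led by Epcam, Cdh1 and interferon-response genes such as Ifit3, and 36 cells with Ccr9, a pDC marker, among the leading genes. Plasmacytoid dendritic-like (pDC-like) cells numbered 266, 163, 168, 72 and 56. B-like cells numbered 296, 559, 626, 530 and 187. Germinal-centre B-like cells numbered 12 to 16 in the first 3 libraries, 256 in ctxd18t and 76 in combod18t.

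Levels are given as CPM, a gene's UMIs for every 1000000 UMIs, both added up over all cells that a library had in a class. The I-A alpha chain gene H2-Aa stood highest in cDC2-like cells, at 16757, 14179, 13682, 12594 and 12850.3 CPM in MRX, CTX, Combined, ctxd18t and combod18t, the order of libraries kept from here on. C1q macrophage-like cells followed at 10856, 11806, 12615, 9478 and 9296 CPM of H2-Aa, and Ly6i Lpl macrophage-like cells at 7996, 10283, 8755, 8398 and 8179 CPM. Within each library cDC2-like cells stood above C1q macrophage-like cells, although the ranges over the 5 libraries met, and C1q stood above Ly6i Lpl macrophage-like cells with overlapping ranges. B-like cells held 6799.8, 7668, 8196, 6220.4 and 5718 CPM of H2-Aa, a range that overlapped the lower Ly6i values. Below them stood Vcan F13a1 monocyte-like cells at 3689, 4758, 4888, 3734 and 2939 CPM, and pDC-like cells at 2874, 2267, 2158, 2246 and 2495 CPM. The Vcan and pDC ranges did not overlap, though by a narrow margin. The cDC1-like cells held 11527 to 15621 CPM of H2-Aa and overlapped both cDC2-like and C1q macrophage-like cells.

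T-like cells, which should hold almost no class II RNA, gave the level that free RNA in the droplets could supply. Their H2-Aa stood at 76.5, 154, 226, 147 and 158 CPM in MRX, CTX, Combined, ctxd18t and combod18t, the lowest in MRX and the highest in Combined. The lowest H2-Aa level of any antigen-presenting class with at least 10 cells was 2158 CPM, in pDC-like cells of Combined. Ciita in T-like cells stood at 0.392 to 2.15 CPM against 12.8 to 26.5 CPM in pDC-like cells.

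**Figure D1:**
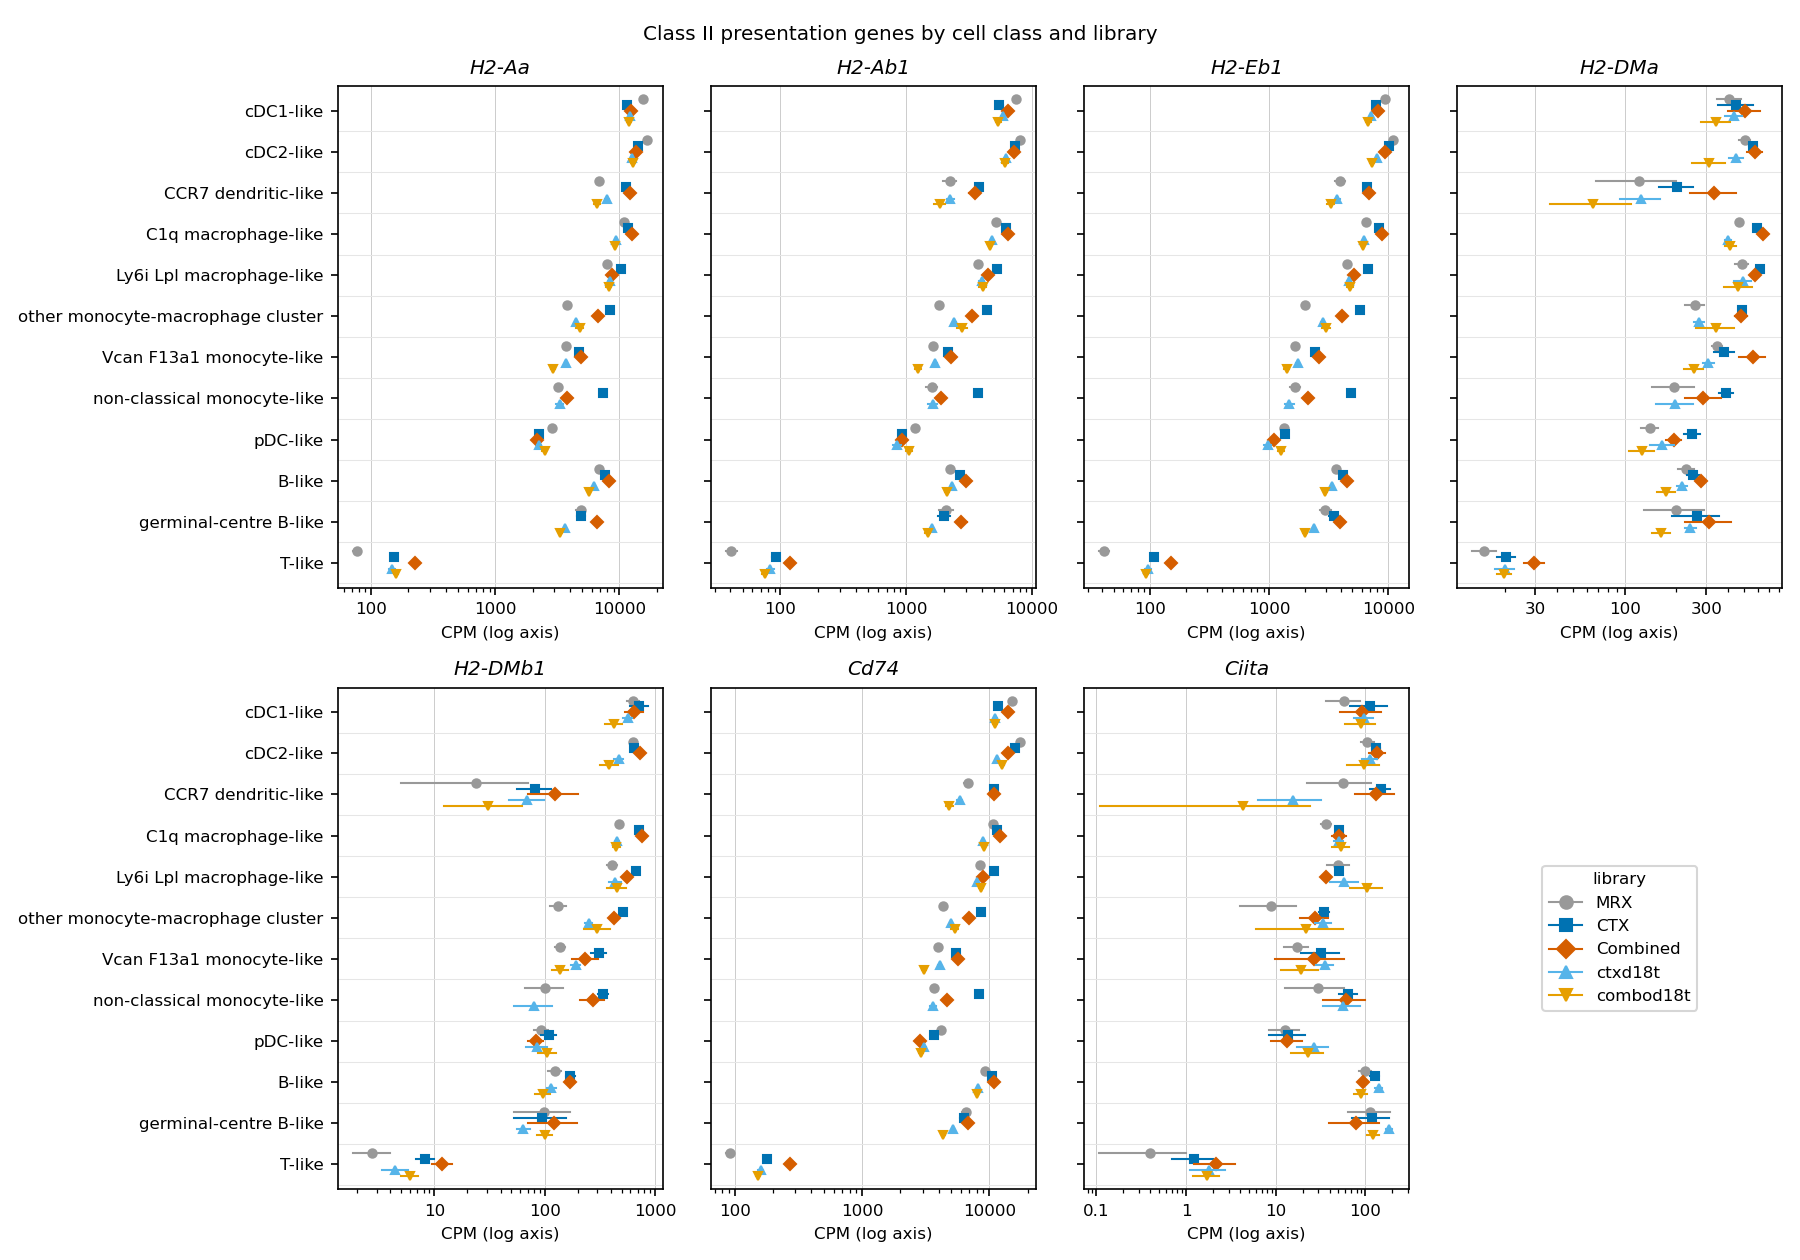
Level of each of the 7 genes (CPM, log axes) in 12 cell classes and 5 libraries; points are sums over the cells of a class in 1 library, bars are exact 95% Poisson intervals of counting error, and classes with under 10 cells or a value of 0 are not drawn. The T-like row sits below the rest in all 7 panels, the Ciita intervals of B-like and cDC2-like cells overlap in every library but Combined, where cDC2-like cells are higher, and H2-DMb1 drops in CCR7 dendritic-like cells.

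The other chain genes were highest in cDC2-like cells too. The I-A beta chain gene H2-Ab1 stood at 8026, 7342, 7158, 6171 and 6110.4 CPM in cDC2-like cells, at 5186, 6251, 6445, 4832 and 4633 CPM in C1q macrophage-like cells, and at 2222, 2686, 2986, 2315 and 2097 CPM in B-like cells. The cDC2-like and C1q ranges of H2-Ab1 overlapped, and both lay wholly above the B-like range. H2-Eb1, the I-E beta chain gene, stood at 11035, 10253, 9332, 8075 and 7318 CPM in cDC2-like cells, 6531, 8349, 8802, 6271 and 6121 CPM in C1q macrophage-like cells and 3668, 4175, 4506, 3377 and 2963 CPM in B-like cells. Day 18 libraries held the lowest H2-Eb1 values in all 3 classes. Class II chains differ in sequence between mouse haplotypes, and the part of that in counts made against 1 reference genome was not tested.

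Cd74, the invariant chain gene, behaved otherwise in B-like cells. Its level there was 9236, 10502, 10843, 8151 and 7989 CPM, against 8320.5, 10624, 9177, 6647 and 6804 CPM in monocyte-macrophage-like cells. B-like cells thus held as much Cd74 as the macrophage lineage (log2 ratio of B-like to monocyte-macrophage-like, -0.02 in CTX to 0.29 in ctxd18t), although they held less H2-Ab1 in all 5 libraries (-0.999 in CTX to -0.56 in ctxd18t). Across the same 2 classes H2-Aa was lower in B-like cells by 0.11 to 0.43 on the log2 scale. In cDC2-like cells Cd74 stood at 17553, 15839, 13963, 11566 and 12647 CPM, the highest class for this gene in 4 of 5 libraries, the exception being Combined, where 11 cDC1-like cells held 14174 CPM.

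The editor genes did not follow the chains in every class. H2-DMa stood at 415, 582, 572, 346 and 357 CPM in monocyte-macrophage-like cells and at 458, 509.9, 531, 374 and 254 CPM in conventional dendritic-like cells, so the dendritic class was above the macrophage lineage in MRX and ctxd18t and below it in the others. The log2 ratio of conventional dendritic-like to monocyte-macrophage-like cells for H2-DMa was 0.14, -0.19, -0.11, 0.11 and -0.49, against 0.94, 0.40, 0.56, 0.77 and 0.67 for H2-Aa. Of the 7 genes, 7, 5, 6, 7 and 5 were higher in conventional dendritic-like cells in MRX, CTX, Combined, ctxd18t and combod18t. The exceptions in CTX and combod18t were H2-DMa and H2-DMb1, and in Combined H2-DMa. Without the CCR7 dendritic-like cells, an alternative chosen after seeing the data, H2-DMa alone was the exception in each of these 3 libraries, and H2-DMb1 stood at 653 against 649 CPM in CTX and at 406 against 333 CPM in combod18t.

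H2-DMb1 and H2-DMb2 are neighbouring, closely alike copies of the beta chain gene, so reads common to both may be lost or split by the counting. H2-DMb1 stood at 358, 649, 566, 334 and 333 CPM in monocyte-macrophage-like cells and at 124, 172, 171, 115 and 96.0 CPM in B-like cells. B-like cells were low in all 5 libraries, by a log2 ratio of -1.53, -1.91, -1.72, -1.53 and -1.78. H2-DMb2 went the other way, with 746, 859, 842, 749 and 627 CPM in B-like cells and 128, 242, 208, 141 and 143 CPM in monocyte-macrophage-like cells (log2 ratio 2.54, 1.83, 2.01, 2.40 and 2.12). In every library, then, H2-DMb1 was the copy higher in the macrophage lineage and H2-DMb2 the copy higher in B-like cells. Conventional dendritic-like cells held both, H2-DMb1 at 596, 582, 636, 417 and 302 CPM and H2-DMb2 at 372, 562, 549, 303 and 275 CPM.

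Ciita, the coactivator gene, was counted at far fewer UMIs and had its own order. It stood at 31.2, 48.8, 38.5, 43.6 and 44.0 CPM in monocyte-macrophage-like cells, at 98.8, 128, 93.4, 141 and 88.8 CPM in B-like cells and at 105, 132, 137, 113 and 96.3 CPM in cDC2-like cells. B-like cells, which held less H2-Aa, H2-Ab1 and H2-Eb1 than the macrophage lineage, held more Ciita in all 5 libraries (log2 ratio 1.63, 1.37, 1.26, 1.67 and 1.00). Conventional dendritic-like cells were also above the macrophage lineage for Ciita, by 1.54, 1.43, 1.71, 0.98 and 0.62. Germinal-centre B-like cells held 186 CPM of Ciita in ctxd18t, the highest of any class and library, and 123 CPM in combod18t. In that class, 10 of 11 T cell markers and 9 of 10 monocyte-macrophage markers reached 10% of cells in combod18t, against 0 and 1 in ctxd18t, and their part in the combod18t values was not tested.

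A ratio of 2 genes within a class needs no scaling, and each pair of genes is compared between classes only. For every 100 UMIs of H2-Ab1, B-like cells held 416, 391, 363, 352 and 381 UMIs of Cd74, and monocyte-macrophage-like cells 213, 198, 200.5, 195 and 204. The B-like values lay above the macrophage values in all 5 libraries, and pDC-like cells (275 to 397), CCR7 dendritic-like cells (260 to 310) and germinal-centre B-like cells (249 to 327) were above the macrophage range as well. Conventional dendritic-like cells held 217, 221, 207, 195 and 213 UMIs of Cd74 per 100 of H2-Ab1, a range that overlapped the macrophage one. H2-Aa per 100 UMIs of H2-Ab1 was 211, 192, 198, 197 and 204 in monocyte-macrophage-like cells, 306, 285, 274, 269 and 273 in B-like cells and 310, 295, 349, 355 and 357 in CCR7 dendritic-like cells. B-like and CCR7 dendritic-like cells thus held less H2-Ab1 for each UMI of H2-Aa than the macrophage lineage in all 5 libraries.

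CCR7 dendritic-like cells, the mature migratory state, also stood apart in the editor. H2-DMb1 per 100 UMIs of H2-Ab1 was 1.08, 2.15, 3.53, 3.10 and 1.66 there, against 7.92, 8.55, 9.67, 7.98 and 6.50 in conventional dendritic-like cells as a whole. Those levels rest on 3, 33, 16, 31 and 7 UMIs of H2-DMb1 in 10 to 36 cells. Ciita in CCR7 dendritic-like cells stood at 56.2, 148, 131, 15.7 and 4.37 CPM (7, 60, 17, 7 and 1 UMIs), low in both day 18 libraries. Monocyte-macrophage markers summed to 1638 CPM in the 10 CCR7 dendritic-like cells of Combined against 131 to 280 CPM elsewhere, and T cell markers to 24.1, 220, 61.8, 562 and 778 CPM, highest in the day 18 libraries; their part in these values was not tested. H2-DMa per 100 UMIs of H2-Ab1 was highest in Vcan F13a1 monocyte-like cells among the macrophage and monocyte states, at 20.9, 17.7, 24.4, 18.003 and 20.3, against 8.95, 9.51, 10.0, 8.28 and 8.94 in C1q macrophage-like cells. Every monocyte-like value lay above every C1q macrophage-like value.

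**Figure D2:**
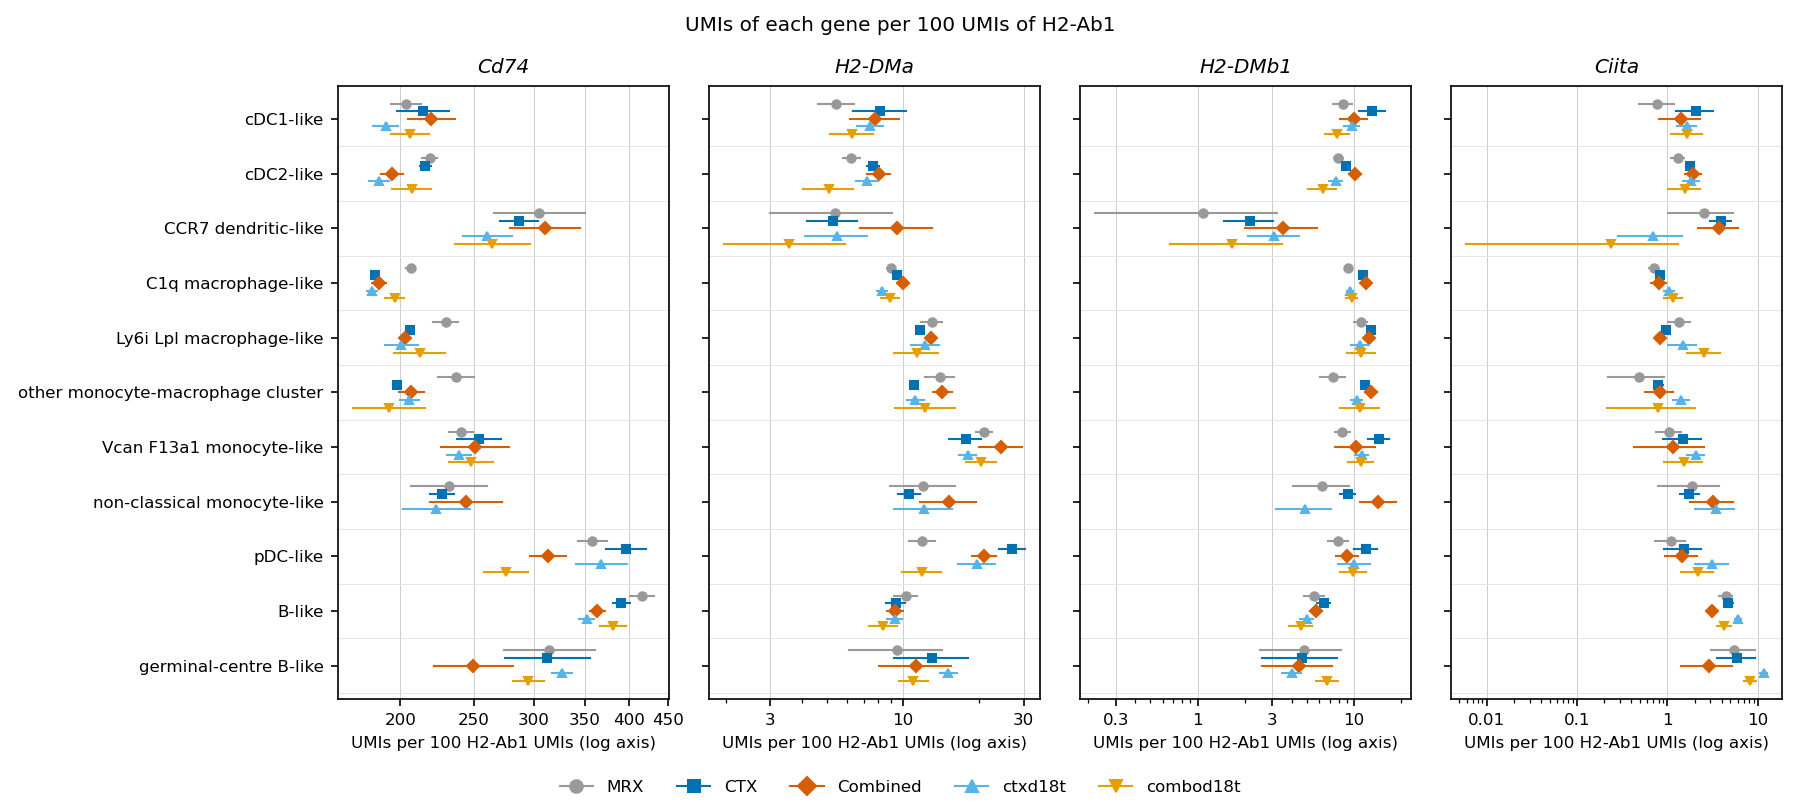
UMIs of Cd74, H2-DMa, H2-DMb1 and Ciita per 100 UMIs of H2-Ab1 (log axes) by cell class and library; points are ratios of summed counts in 1 library and bars exact 95% intervals of counting error. Cd74 lies at 352 to 416 in B-like cells, and H2-DMb1 at 1.08 to 3.53 in CCR7 dendritic-like cells. Monocyte-macrophage-like and conventional dendritic-like cells as wholes, at 195 to 221 for Cd74, are not drawn.

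Single cells were compared after drawing 1000 UMIs at random from each cell, since depth differed between classes and libraries. In monocyte-macrophage-like cells, 80.9%, 95.7%, 92.4%, 82.8% and 80.8% of cells then held a UMI of H2-Aa, and 89.9%, 98.2%, 97.0%, 94.2% and 92.8% did with all UMIs. T-like cells gave 6.75%, 11.2%, 11.9%, 6.33% and 4.56% after drawing (24.3% to 43.9% with all UMIs), at a median depth of 4712.5 to 7693 UMIs against 8124 to 13176 in monocyte-macrophage-like cells. The draw left out 4 to 9 monocyte-macrophage-like and 3 to 20 T-like cells in a library. CTX and Combined held the largest shares of H2-Aa cells in the macrophage lineage.

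The states differed in how evenly cells carried H2-Aa. The median cell held 11, 12, 13, 10 and 9 drawn UMIs of H2-Aa in C1q macrophage-like cells and 7, 10, 8, 8 and 10 in Ly6i Lpl macrophage-like cells. In the unnamed cluster of the lineage the median was 2, 7, 6, 4 and 4, and 41.3%, 9.92%, 13.4%, 22.7% and 18.2% of cells held none, the largest share in MRX. Vcan F13a1 monocyte-like cells had a median of 2, 3, 3, 3 and 1 and a share without H2-Aa of 39.3%, 20.3%, 17.4%, 34.1% and 44.1%. Cells without H2-Aa were most frequent in combod18t and MRX and least frequent in Combined. B-like cells were more even, with a median of 7, 8, 8, 6 and 6 and at most 1.63% of cells without H2-Aa.

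**Figure D3:**
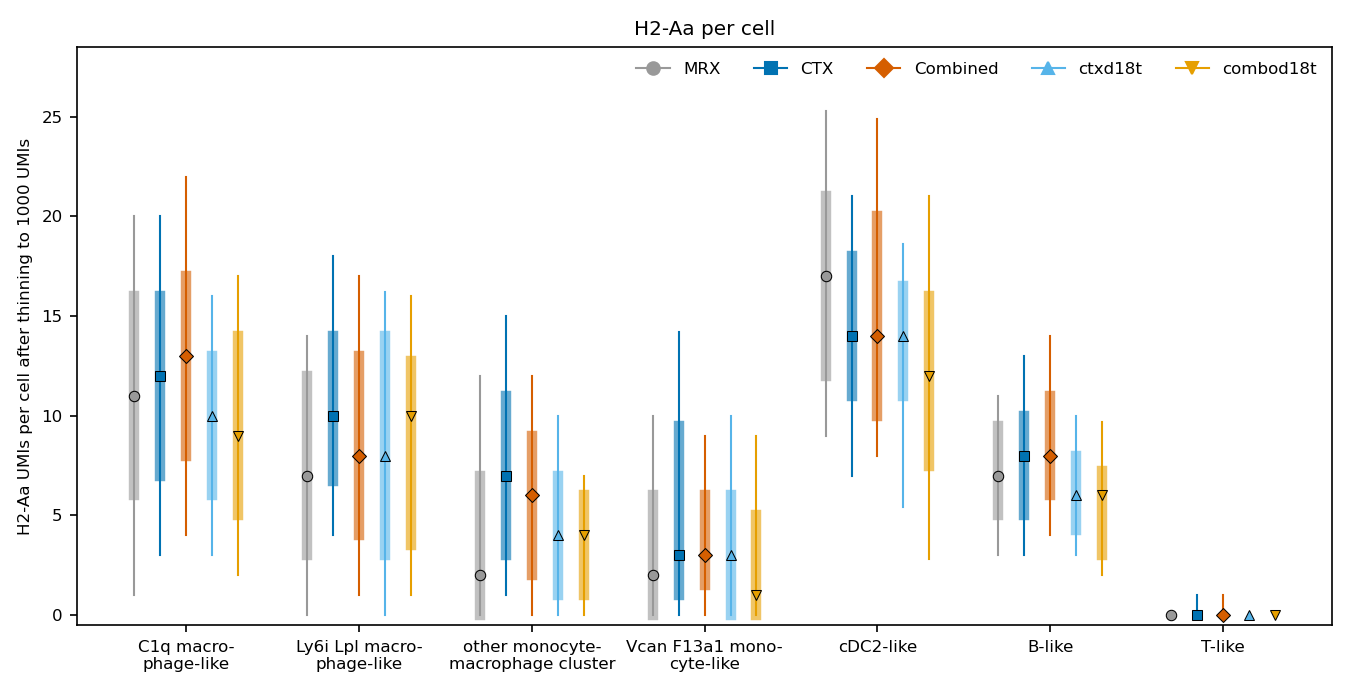
H2-Aa UMIs per cell after drawing 1000 UMIs from each cell, in 7 classes and 5 libraries; points are medians, thick bars run from the lower to the upper quartile and thin lines from the 10th to the 90th percentile of cells. Medians are 9 to 13 in C1q macrophage-like, 1 to 3 in Vcan F13a1 monocyte-like, 12 to 17 in cDC2-like, 6 to 8 in B-like and 0 in T-like cells.

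MRX, CTX and Combined were then compared within each class by the log2 ratio of CPM + 1, which slightly understates the change of genes with a low level. A ratio of at least 1 in size (2-fold) was counted as past the fold, and only classes with at least 30 cells in both libraries were used. Any pair of these comparisons shares a library. In monocyte-macrophage-like cells all 7 genes were higher in CTX than in MRX. The log2 ratio was 0.32 for H2-Aa, 0.46 for H2-Ab1, 0.55 for H2-Eb1, 0.49 for H2-DMa, 0.86 for H2-DMb1 (95% interval 0.81 to 0.91), 0.35 for Cd74 and 0.63 for Ciita (0.49 to 0.81). None of the 7 was past the fold, where 2.05% of the 4200 expressed genes were past it upward and 1.29% downward. The median of the 7 was 0.49, and that of all expressed genes -0.00. In these cells the 10 markers of cDC2 summed to 86.3, 160, 120, 212 and 130 CPM, against 2055 to 2771 CPM in cDC2-like cells; over MRX, CTX and Combined they stood in the order of the 7 genes, and their part in the ratios was not tested.

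Combined lay between CTX and MRX in that lineage. Against MRX all 7 genes were higher, with a median of 0.23 that ran from 0.13 for H2-Aa to 0.66 for H2-DMb1, and none was past the fold (3% of expressed genes upward, 2.98% downward). Against CTX all 7 were lower, with a median of -0.21 that ran from -0.33 for H2-Eb1 and Ciita to -0.02 for H2-DMa (-0.06 to 0.01), and none was past the fold (0.143% upward, 0.333% downward). The makeup of the lineage differed between these libraries, and with its clusters given the same weights in every library the medians became 0.35 against MRX and -0.13 against CTX, an alternative chosen after seeing the data. The states are therefore given next.

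In C1q macrophage-like cells Combined was not below CTX. All 7 genes were again higher in CTX than in MRX (median 0.35, from 0.11 for Cd74 to 0.58 for H2-DMb1; none past the fold, 1.89% of expressed genes upward), but 6 of 7 were higher in Combined than in CTX, by at most 0.12 (0.0956% of expressed genes past the fold upward), and Ciita stood at -0.00 (-0.30 to 0.28). In Ly6i Lpl macrophage-like cells all 7 were lower in Combined than in CTX (median -0.28, from -0.47 for Ciita to -0.11 for H2-DMa; none past the fold, 0.101% of expressed genes downward). All 7 were also lower in Combined in the unnamed cluster (median -0.32; none past the fold, 0.954% of expressed genes downward) and in non-classical monocyte-like cells. The difference between the states was not tested, there being 1 library of each label.

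The ratios of CTX to MRX in the unnamed cluster of the lineage were larger than those in the C1q and Ly6i Lpl states, a difference that was not tested. H2-Aa stood at 3816, 8426, 6766, 4485 and 4789 CPM there, H2-Eb1 at 1994, 5746, 4070.4, 2811 and 3003 CPM and H2-DMb1 at 133, 513, 429, 251 and 301 CPM. MRX was the lowest of the 5 libraries for each of these genes and CTX the highest. Between CTX and MRX, 5 of the 7 genes were past the fold (1.79% of expressed genes upward), with log2 ratios of 1.14 for H2-Aa, 1.26 for H2-Ab1, 1.53 for H2-Eb1, 1.94 for H2-DMb1 and 1.86 for Ciita (1.03 to 3.12, on 9 UMIs in MRX). H2-DMa was at 0.91 and Cd74 just under the fold. How far these ratios lay past the fold turned on how the cluster was drawn: the median of the 7 was 1.26, and 0.67 with 1 gene past the fold under a finer clustering (Leiden resolution 2) and 0.78 with 3 past it without doublet removal, while all 7 stayed higher in CTX. Between Combined and MRX, 3 of 7 were past the fold (3.26% of expressed genes upward) with a median of 0.90, and 0 of 7 with a median of 0.27 under the finer clustering. Markers of cDC2 summed to 75.4, 157, 109.7, 213 and 93.2 CPM in this cluster, lowest in MRX, and their part in these ratios was not tested.

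Non-classical monocyte-like cells, the patrolling blood monocyte type, were few. H2-Aa stood at 3224 CPM in 42 MRX cells, 7408 in 150 CTX cells, 3765 in 33 Combined cells and 3302 in 34 ctxd18t cells. CTX was the high library for H2-Aa, and the other 3 lay close together, but H2-DMb1 stood at 99.96, 337, 272 and 79.5 CPM, high in Combined as well. All 7 genes were past the fold between CTX and MRX (4.61% of expressed genes upward), from 1.02 for H2-DMa to 1.74 for H2-DMb1, with a median of 1.20. Under the finer clustering 2 of 7 were past it with a median of 0.95, and with a minimum of 500 genes per cell 2 of 7 with a median of 0.96. Between Combined and MRX, H2-DMb1 at 1.43 (0.78 to 2.15) and Ciita at 1.01 (-0.29 to 2.48, on 15 and 8 UMIs) were past the fold (5.99% of expressed genes upward), the median was 0.35, and none was past it under the finer clustering, with the 500 gene minimum or without doublet removal. Between Combined and CTX all 7 were lower with a median of -0.85, and H2-Eb1 alone was past the fold at -1.19 (-1.32 to -1.06; 2.74% of expressed genes downward); under the finer clustering none was. Markers of C1q macrophages summed to 2251, 1230, 832 and 2149 CPM in this class in MRX, CTX, Combined and ctxd18t, and markers of cDC2 to 133, 213, 292 and 383 CPM, lowest in MRX, with 5 to 7 of the 10 cDC2 markers at 0; their part in these values was not tested. In Vcan F13a1 monocyte-like cells all 7 were higher in CTX (59 cells) than in MRX (285 cells), with H2-DMb1 past the fold at 1.15 (0.89 to 1.42; 1.94% of expressed genes upward), and Combined had too few cells. Their median was 0.47, and 1.29 under the finer clustering and 1.07 without doublet removal, each with 5 of 7 past the fold. H2-DMb1 was no longer past it with the 500 gene minimum (0.76) or with cells thinned to 1000 UMIs (0.93). The class was made of other cells in each library: 1 of its subclusters, led by Spp1 and Mt1, held 267, 39, 13, 21 and 0 cells, and another, led by S100a9 and Lcn2, held 5, 7, 5, 111 and 56.

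**Figure D4:**
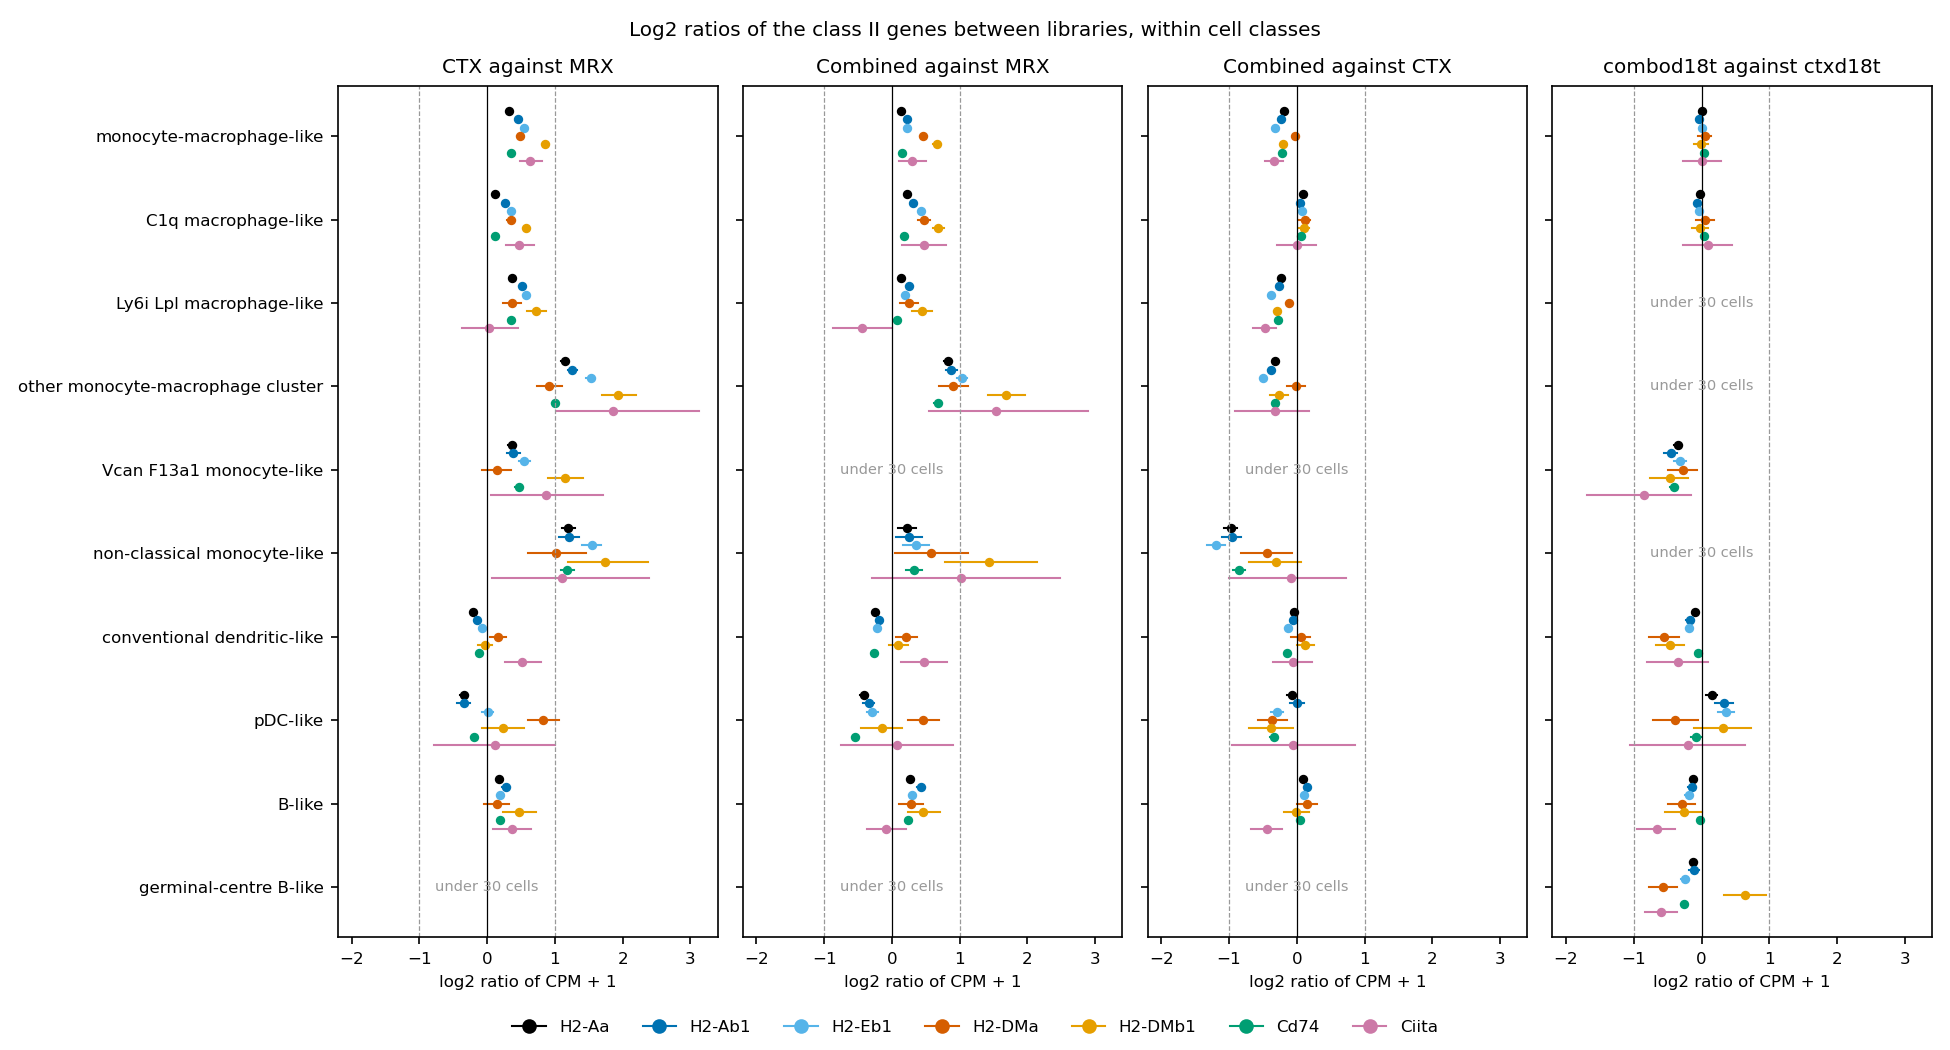
Log2 ratio of CPM + 1 of each of the 7 genes between pairs of libraries, within 10 cell classes; points are ratios of 1 library to 1 library, bars exact 95% intervals of counting error, dashed lines the fold of 1 in size, and pairs with under 30 cells are marked. Ratios of CTX to MRX lie right of 0 in each macrophage and monocyte state drawn, reaching 1.94 for H2-DMb1 in the unnamed cluster (labelled other monocyte-macrophage cluster), while those of the day 18 pair stay near 0 in C1q macrophage-like cells.

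Conventional dendritic-like cells did not share the order of the macrophages. In conventional dendritic-like cells H2-Aa stood at 15875, 13677, 13291, 11466 and 10748 CPM, highest in MRX and lowest in combod18t. The log2 ratio of CTX to MRX was -0.21 for H2-Aa, -0.14 for H2-Ab1, -0.08 for H2-Eb1 and -0.12 for Cd74, and 0.52 for Ciita (0.27 to 0.79). The class was made of other cells in the 2 libraries, cDC1-like cells giving 20.2% of its UMIs in MRX and 5.11% in CTX and CCR7 dendritic-like cells 6.61% and 12.3%. Within cDC2-like cells the ratio was -0.24 for H2-Aa and 0.32 (0.04 to 0.61) for Ciita. Their makeup differed too. The subcluster led by Epcam and Cdh1 held 42 of 129 cells in MRX and 104 of 199 in CTX, and the one led by Cd209a 77 and 82. None of the 7 was past the fold in conventional dendritic-like cells as a whole (2.23% of expressed genes upward, 1.9% downward). Combined against CTX gave ratios from -0.14 to 0.13 in these cells. In pDC-like cells H2-Aa and H2-Ab1 were lower in CTX than in MRX, both at -0.34, while H2-DMa was higher at 0.82 (0.60 to 1.05), from 139.6 to 248 CPM. T cell markers summed to 491, 808, 1533, 1350 and 1956 CPM in pDC-like cells, lowest in MRX, and their part in these ratios was not tested.

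B-like cells held higher levels in CTX than in MRX for all 7 genes, by 0.14 for H2-DMa to 0.47 for H2-DMb1 with a median of 0.19, and none was past the fold (0.218% of expressed genes upward). In Combined the chain genes were a little higher again (H2-Ab1 0.15 and H2-Aa 0.10 against CTX), while Ciita was lower, at -0.45 (-0.68 to -0.22). The H2-Aa, H2-Ab1 and H2-Eb1 intervals lay above 0 there and that of Ciita below it. T-like cells were lowest in MRX, with H2-Ab1 at 40.7, 91.4, 120.1, 83.3 and 75.1 CPM. The log2 ratio of CTX to MRX there was 1.15 for H2-Ab1, 1 of 3 genes past the fold (1.62% of expressed genes upward), and that of Combined to CTX 0.39. Between Combined and MRX 6 of 7 were past the fold in T-like cells (1.58% of expressed genes upward), with a median of 1.55 and H2-DMa at 0.91, and Ciita rested on 16 and 4 UMIs. Macrophage-lineage markers in T-like cells summed to 271, 323, 465, 282 and 226 CPM, highest in Combined, and their part in these ratios was not tested. The makeup of the T-like class differed as well. Its cluster led by Gzmk and Ccl5 gave 657 of 1846 cells in MRX, 212 of 1701 in CTX and 139 of 976 in Combined.

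Neutrophil-like cells, which at rest are not known as class II presenting cells, held H2-Aa at 197 CPM in MRX (458 cells), 2801 in CTX (90 cells), 2334 in Combined (77 cells), 636 in ctxd18t (334 cells) and 397 in combod18t (291 cells). CTX and Combined were the high libraries. The log2 ratio of CTX to MRX was 3.82 for H2-Aa, and the 6 genes other than Ciita were past the fold, where 13.3% of expressed genes were past it upward. Ciita had 0 UMIs in MRX and 3 in CTX, too few for a ratio. Markers of C1q macrophages summed to 661, 1667, 1033, 606 and 411 CPM in this class, high in the same libraries, and their part in these values was not tested. After drawing 1000 UMIs from each cell, 11.1%, 39.5%, 34.7%, 21.8% and 15.5% of neutrophil-like cells held a UMI of H2-Aa.

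At day 18 the monocyte-macrophage-like cells of both libraries differed little in the 7 genes. The log2 ratio of combod18t to ctxd18t lay between -0.03 for H2-Ab1 and 0.05 for H2-DMa, with a median of 0.01 and none past the fold (0.31% of expressed genes upward, 1.12% downward). With median-of-ratios size factors the median was -0.09 and all 7 were lower, so no direction is read from it. The interval was -0.01 to 0.03 for H2-Aa and -0.28 to 0.29 for Ciita. Vcan F13a1 monocyte-like cells differed, all 7 being lower in combod18t (68 cells) than in ctxd18t (173 cells), with H2-Aa at -0.35 (-0.41 to -0.29), a median of -0.40 and none past the fold (1.09% of expressed genes downward). That median was -0.17 under the finer clustering, and the makeup of the class by subcluster given above differed between these libraries too. In conventional dendritic-like cells all 7 were also lower in combod18t, most of all H2-DMa at -0.55 (-0.78 to -0.33) and H2-DMb1 at -0.47 (-0.68 to -0.26), and none was past the fold (2.02% of expressed genes downward). The makeup of that class differed, with cDC2-like cells giving 45.5% of its UMIs in ctxd18t and 32.9% in combod18t and CCR7 dendritic-like cells 21.2% and 27.9%. H2-DMa in ctxd18t and combod18t stood at 434 and 341 CPM in cDC1-like cells (33 and 14 cells) and 446 and 311 CPM in cDC2-like cells (57 and 20). In CCR7 dendritic-like cells (26 and 10) it stood at 124 and 65.5 CPM. The combod18t value was the lower in each kind, but each had under 30 cells there, so no ratio is given. The part of the makeup in the ratios of the whole class was not tested. In B-like cells Ciita was lower in combod18t at -0.66 (-0.95 to -0.39), with Cd74 at -0.03.

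Over all kept cells of a library H2-Aa stood at 4281, 7830.0, 5167, 4169 and 2203 CPM. In the same order of libraries, monocyte-macrophage-like cells made up 26.4%, 50.1%, 27.3%, 19.3% and 5.79% of kept cells and held 63.0%, 71.6%, 59.6%, 40.4% and 23.8% of the H2-Aa UMIs. Fewer cells of a class and less RNA per cell cannot be told apart in such a total. Ciita was spread otherwise, with 25.7% of its UMIs in B-like and 27.1% in germinal-centre B-like cells in ctxd18t against 21.7% in monocyte-macrophage-like cells. Cells in no named class, most of them in clusters with markers of a pair of lineages at high depth, were 1.64%, 9.46%, 5.60%, 7.66% and 6.25% of kept cells and held 4.93%, 18.4%, 18.3%, 23.7% and 41.3% of the H2-Aa UMIs, the most in combod18t. Keeping the clusters with markers of a pair of lineages in their best class moved the lineage median of combod18t against ctxd18t to -0.12 with all 7 genes lower.

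The other genes of the class II route were taken from a list of 27: further class II chains (5), lysosomal processing (7), surface turnover (2), the promoter complex (7) and the interferon gamma route (6). In monocyte-macrophage-like cells 17 were expressed at the level set for this count (at least 100 UMIs in all and 50 CPM in 1 library). Between CTX and MRX 2 of the 17 were past the fold upward and none downward, both in the interferon gamma route (2.05% of all expressed genes upward, 1.29% downward): Irf1 at 1.48 and Socs1 at 1.91. Irf1 encodes a factor that carries the interferon signal to the Ciita gene, and Socs1 a feedback inhibitor of that signal. Irf1 stood at 69.95, 197, 226, 209.8 and 153 CPM, lowest in MRX. Socs1 stood at 20.3, 79.0, 149, 74.97 and 27.8 CPM, highest in Combined. The median of the 17 was 0.067, beside 0.49 for the 7 genes and -0.00 for all expressed genes.

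Between Combined and MRX the same 2 genes were past the fold upward (Irf1 1.68, Socs1 2.82) and Lgmn downward at -1.41, against 3% of expressed genes upward and 2.98% downward. Lgmn, the asparaginyl endopeptidase of lysosomes, stood at 1369.7, 948, 516, 1265 and 905 CPM. Between Combined and CTX none of the 17 was past the fold, the widest being Socs1 at 0.91 and Lgmn at -0.88. Between combod18t and ctxd18t Socs1 alone was, downward at -1.40 (1.12% of expressed genes downward). Ctss, the protease that makes the last cuts in the invariant chain, stood at 4398, 4607, 4104, 4506 and 4436 CPM in monocyte-macrophage-like cells and at 440.1, 511, 526, 625 and 535 CPM in B-like cells. In every library the macrophage lineage was far above B-like cells for Ctss. Ifi30, the thiol reductase of antigen processing, stood at 645, 921, 1031, 517 and 583 CPM in monocyte-macrophage-like cells and was higher in Combined than in CTX, unlike the 7 genes (log2 ratio 0.16).

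The H2-O genes marked B-like cells. H2-Oa and H2-Ob encode the chains of H2-O, which inhibits H2-DM. H2-Oa stood at 142, 140.1, 162, 139 and 112 CPM in B-like cells, at 66.4, 63.8, 44.1, 53.9 and 51.1 CPM in conventional dendritic-like cells and at 1.10, 2.19, 2.72, 3.01 and 1.65 CPM in monocyte-macrophage-like cells. H2-Ob stood at 210.3, 215, 218, 236 and 229 CPM in B-like cells and at 2.63, 2.73, 2.30, 4.52 and 3.97 CPM in monocyte-macrophage-like cells. T-like cells held 5.98, 9.70, 10.1, 7.62 and 5.24 CPM of H2-Oa, more than the macrophage lineage, so the macrophage value did not exceed the level in T-like cells. H2-Eb2, another class II beta chain gene with the core pair, stood at 30.3, 29.9, 45.0, 47.6 and 34.2 CPM in B-like cells and at no more than 0.418 CPM in monocyte-macrophage-like cells. Genes with the same pair of promoter cores (H2-Aa, H2-Eb1 and H2-DMb1 on one side, H2-Oa, H2-Ob and H2-Eb2 on the other) thus differed widely in the macrophage lineage.

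Of the surface turnover genes, Marchf1, the ubiquitin ligase that sends class II to lysosomes, stood at 0.0, 4.95, 7.73, 2.25 and 4.37 CPM in CCR7 dendritic-like cells (0 to 2 UMIs in a library) and at 115.5, 155, 223, 268 and 124 CPM in cDC1-like cells. CCR7 dendritic-like cells were the lowest for this gene among the antigen-presenting classes in all 5 libraries. Germinal-centre B-like cells held 274, 200.1, 79.1, 584 and 314 CPM of Marchf1. H2-Ea, the I-E alpha chain gene, is not transcribed in mice of the b haplotype, as background. Here it stood at 4755, 6167, 5756, 4164 and 4456 CPM in monocyte-macrophage-like cells and followed the 7 genes (log2 ratio of CTX to MRX 0.38).

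**Figure D5:**
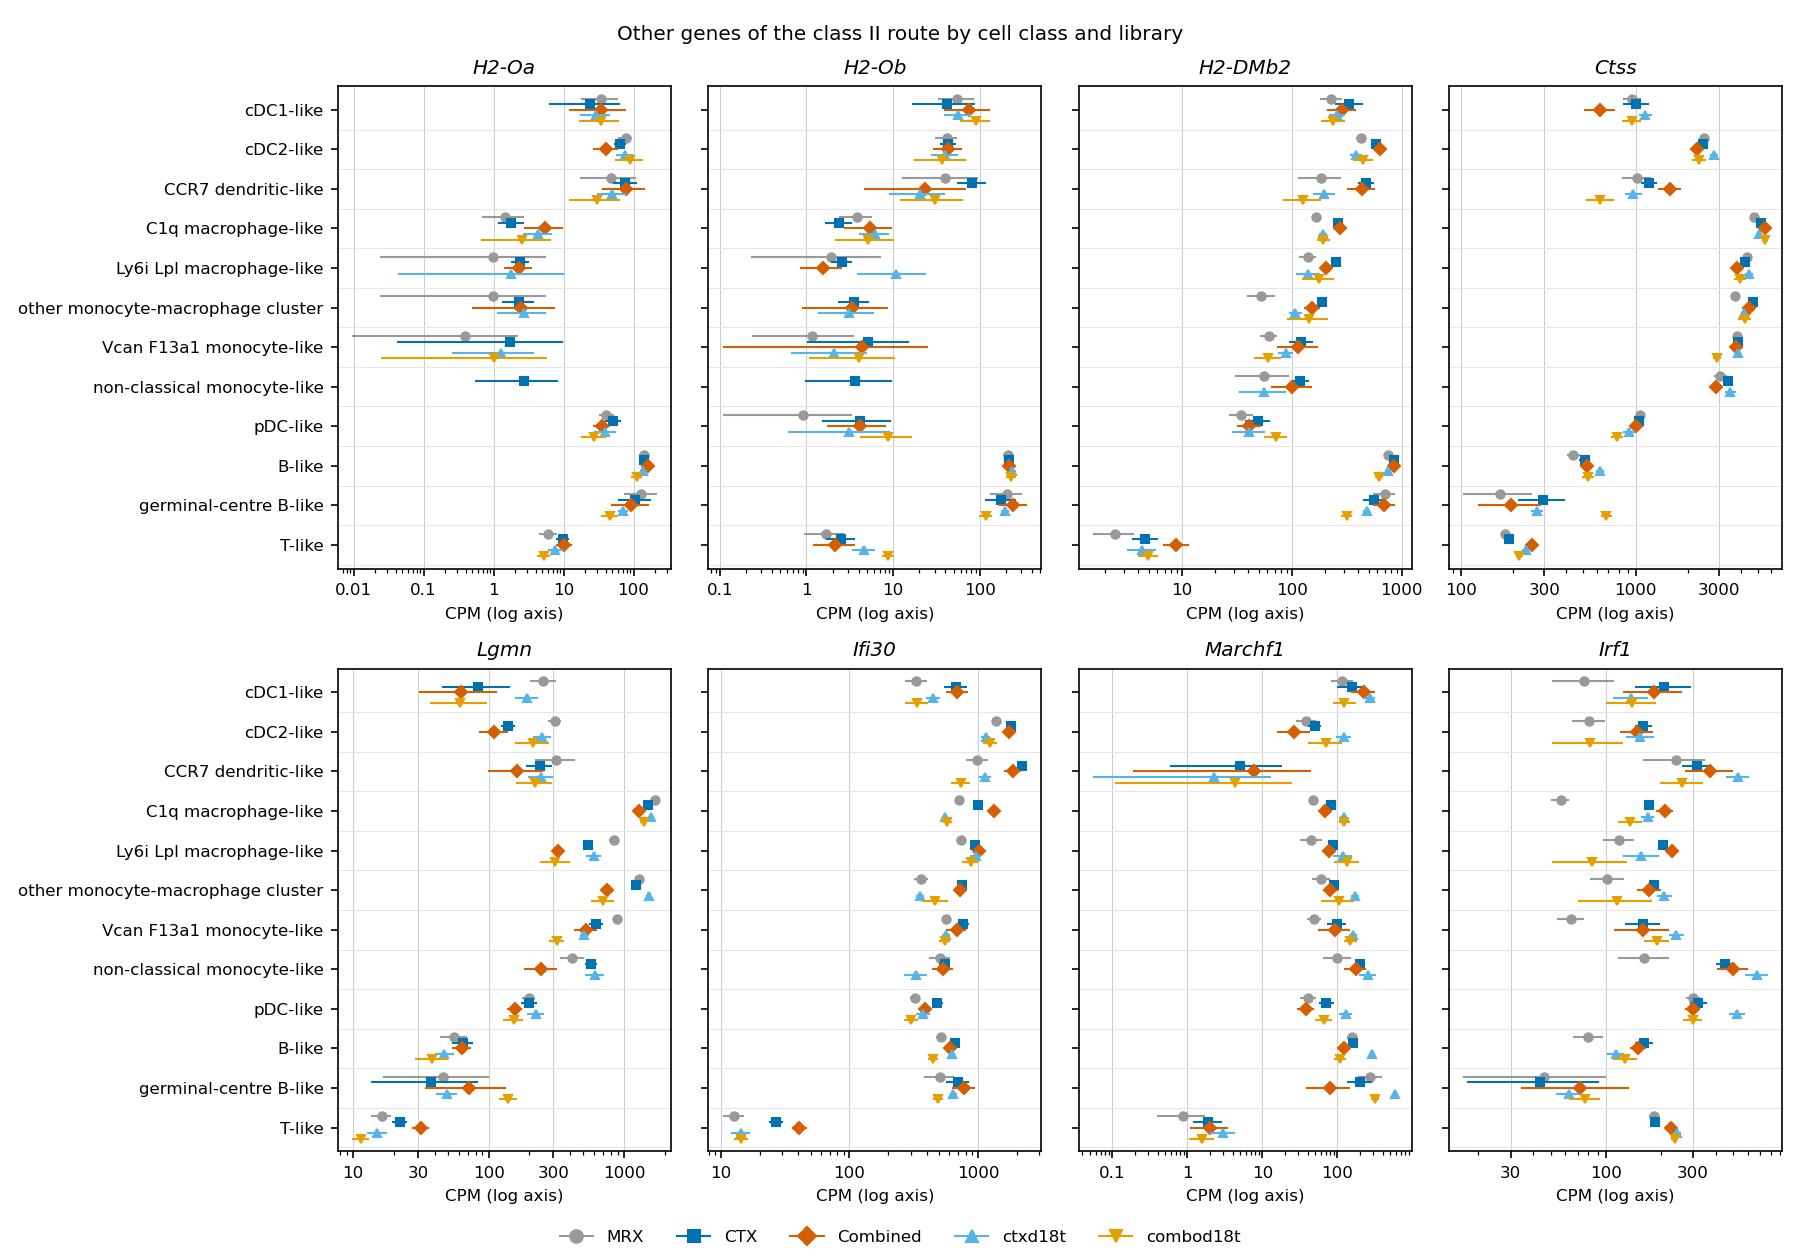
Level (CPM, log axes) of 8 other genes of the class II route by cell class and library; points are sums over the cells of a class in 1 library, bars exact 95% Poisson intervals of counting error, and values of 0 or classes with under 10 cells are not drawn. H2-Oa and H2-Ob stand above 100 CPM in B-like cells and below 5 CPM in the macrophage lineage as a whole (not drawn), and Marchf1 is lowest of the antigen-presenting classes in CCR7 dendritic-like cells.

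Over the 55 sums of a class and a library with at least 30 cells, each of the 7 genes followed their mean closely, with Pearson's r from 0.93 for Ciita to 1.00 for H2-Aa on the log2(CPM + 1) scale. The least alike pair was H2-DMb1 and Ciita, at 0.85. These points share libraries and depth and include classes with almost no class II, so r is a description. Of 7152 expressed genes, those outside the 7 and the list with the most similar pattern were Plekho1 (0.96), Ly86 (0.93), BC028528 (0.92), Cd86 (0.90) and Cd40 (0.89). Cd86 encodes a ligand that costimulates T cells, and Cd40 the receptor through which T cells help antigen-presenting cells. Cd40 stood at 42.6, 92.2, 106, 54.3 and 57.5 CPM in monocyte-macrophage-like cells, higher in CTX and Combined than in MRX. Cd86 stood at 372, 403, 482, 596 and 683 CPM there, highest in the day 18 libraries, where the 7 genes were low or intermediate. In pDC-like cells Cd86 was at 34.7 to 186 CPM, far below its B-like values of 650.4 to 954 CPM. Within the list of 27, r with the mean of the 7 genes was 1.00 for H2-Ea, 0.97 for Ifi30, 0.93 for H2-DMb2, 0.45 for H2-Ob and 0.24 for H2-Oa.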

How the data were processed

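Single CD45+ DAPI- cells were captured with the 10x 3′ V4 on-chip multiplexing chemistry. Per the labels' protocols, the authors ran Cell Ranger 9.0.1. GRCm39 and Seurat 5.2.0 are named in the submitters' processing notes. The deposited matrices hold raw UMI counts per gene and cell barcode, whole numbers with no normalisation by the authors.

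Cells with at least 200 genes and at most 15% mitochondrial counts were kept. Scrublet (in scanpy 1.11.5, Python 3.11.15) marked under 0.5% of cells, so the highest 5% by score in each library were removed, ties kept. Counts scaled to 10000 per cell, 2000 variable genes without the 7 genes and the list of other class II genes, 30 principal components and 15 neighbours gave 25 Leiden clusters (leidenalg 0.10.2, resolution 1), some split again at resolution 0.5. A cluster took the class with the best mean of its 5 best markers and needed 3 markers in at least 10% of cells. A monocyte-macrophage or B cluster with no marker of its state among its 10 genes of highest fold kept its lineage only. Clusters with a second lineage at 0.5 times the best score or more were left out if they were also deep. Deep meant over 1.5 times the depth of their lineage or, for a split, of the cells that were split. Depth was taken as a cell's UMIs over its library's median.

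Counts were summed per class and library and scaled to CPM. Intervals (scipy 1.17.1, numpy 2.4.6) are exact Poisson for CPM, Clopper-Pearson for shares and conditional binomial for ratios. Expressed genes had at least 100 counts and 50 CPM in 1 library. With 1 library per label no test was run. All 7 genes could be named in any class; of the list of 27, genes of a group that was counted, first those past the fold in monocyte-macrophage-like cells; and the 5 other genes most correlated with the mean of the 7. A gene of the list is not reported here. The members, lists and markers were chosen with earlier results of these data known. The arithmetic of the ratio step was checked on counts simulated for CTX against MRX in monocyte-macrophage-like cells (3535 genes). The draws were Poisson, with no spread between cells or mice. All of 200 genes changed by 1.5 on the log2 scale passed the fold, and 94.91% of intervals held the true value. Such draws meet what the intervals assume, so the check says nothing of how far real ratios vary between mice. Depth limits Ciita most, at 133 to 2431 UMIs in monocyte-macrophage-like cells against 20494 to 515396 for H2-Aa. Alternatives were another cell filter, scaling, summary, depth, pseudocount, doublet and mixed-cluster treatment and clustering. Chosen after seeing the data were leaving out shared barcodes, leaving out CCR7 dendritic-like cells and a pooled mix of states, weighted alike in every library.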

Additional observations from a re-analysis of the deposited data

Results flagged for a closer look

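The genes here had opposite directions between Combined and CTX and between combod18t and ctxd18t, with both counting intervals clear of 0 and at least 0.25 between the log2 ratios. The difference between the pairs was not tested, since each label has 1 library. In B-like cells H2-Ab1 was at 0.15 in Combined against CTX and at -0.14 in combod18t against ctxd18t, and H2-Eb1 at 0.11 and -0.19. H2-Eb1 in pDC-like cells was at -0.30 and 0.36, where T cell markers summed to 808, 1533, 1350 and 1956 CPM (CTX, Combined, ctxd18t, combod18t). H2-Ab1 in T-like cells was at 0.39 and -0.15. Cd74 in NK-like cells was at -0.24 and 1.72.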

How the results depend on the processing

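No paired analysis was possible because each label has 1 library. The median log2 ratio of the 7 genes in monocyte-macrophage-like cells was -0.21 for Combined against CTX. It became -0.26 with median-of-ratios size factors, -0.25 as a mean of each cell's CPM, -0.23 with cells thinned to 1000 UMIs, -0.20 without doublet removal, -0.19 with mixed clusters kept and -0.13 with an equal mix of states. For CTX against MRX it was 0.49, and 0.42 with the pooled mix. For Combined against MRX it was 0.23, with 0.20 under size factors and 0.35 under the pooled mix. For combod18t against ctxd18t it was 0.01, with -0.086 under size factors, 0.048 thinned and -0.12 with mixed clusters kept. The pooled mix was chosen after seeing the data.

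The settings were run on 11 classes: the monocyte-macrophage lineage and its 5 states, conventional dendritic-like, cDC2-like, pDC-like, B-like and germinal-centre B-like cells, and not T-like, NK-like or neutrophil-like cells. Of the 245 ratios of the 7 genes between libraries in these classes, 19 were past the fold. Of these, 8 remained so with at least 500 genes per cell, 9 without doublet removal, 14 thinned, 15 with a pseudocount of 10 CPM, 4 at Leiden resolution 2, and 18 or 19 under the other settings run on all 11 classes. Other ratios came past the fold: 18 at Leiden resolution 2, 14 thinned, 8 with mixed clusters kept, 5 without doublet removal, 2 with size factors, 2 as a mean of each cell's CPM and 1 without the 7 genes in the total. The cause of these losses and gains was not tested. The sign of 1 of the 19 changed: Ciita in non-classical monocyte-like cells, Combined against MRX, was at 1.01 and became -0.64 when thinned. The number of the 7 genes higher in conventional dendritic-like than in monocyte-macrophage-like cells was also taken under the alternatives. It was 7 in MRX, 5 to 6 in CTX, 6 in Combined, 6 to 7 in ctxd18t and 5 to 6 in combod18t. State sizes depend on the clustering, and classes of 10 to 40 cells and Ciita rest on few UMIs.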

Other observations

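NK-like cells held H2-Aa at 54.9, 109, 105, 57.3 and 159 CPM, of the order of the T-like values. The log2 ratio of combod18t to ctxd18t in NK-like cells was 1.46 for H2-Aa, 0.69 for H2-Ab1 and 0.85 for H2-Eb1, and -0.63 (-1.70 to 0.34) for H2-DMa on 16 and 21 UMIs. Ciita had no UMI in either library, and H2-DMb1 had 2 in combod18t and 0 in ctxd18t.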
